A study of Mus musculus with 2 samples.

Results

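The 10 genes described here encode the killing machinery and the main effector cytokine of cytotoxic lymphocytes: 7 granzymes (Gzma, Gzmb, Gzmc, Gzmd, Gzme, Gzmf and Gzmk), perforin (Prf1), the granule membrane protein Nkg7 and interferon gamma (Ifng). They were listed by name among the 32285 genes counted, and read in 6 kinds of tumor-infiltrating lymphocytes in each of 2 single-cell libraries. The control library came from Pgdfl/fl mice (WT), in which the gene for 6-phosphogluconate dehydrogenase of the pentose phosphate pathway is flanked by loxP sites and intact. The other library came from Pgdfl/fl LysMCre mice (6PGDKO), which carry the same floxed alleles and in addition Cre recombinase driven from the lysozyme M locus (Lyz2), a driver active in myeloid cells. The lymphocytes of both libraries therefore had floxed alleles, and the lymphocytes described below were not the cells in which this Cre acts. Both genotypes were female, 6 to 12 weeks old, bore AT3 tumors (a mouse mammary carcinoma line) and were taken on day 30. Each library was a pool of 10 mice of 1 genotype, so there was 1 sample per genotype, no test between genotypes could be made, and no p-value is given.

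Cytotoxic lymphocytes store granzymes, which are serine proteases, in lysosome-like granules together with perforin, and release both at the contact with a target cell. Perforin opens the target membrane, granzymes enter and cut substrates that start cell death, and interferon gamma is secreted by the same cells to act on macrophages and tumor cells. In tumors, CD8 T cells and NK cells are the main carriers of this program, while regulatory T cells, marked by Foxp3, are known to hold granzyme B as well.

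Cells were assigned by their UMIs (unique molecular identifiers, counted once per RNA molecule captured) of marker genes, none of which is among the 10. A T cell held at least 2 UMIs of the CD3 genes. T cells with at least 3 UMIs over 6 cell cycle genes were called cycling T, and the others were divided by UMIs of Foxp3, Trdc, Cd8a or Cd8b1, and Cd4. NK cells held at most 1 CD3 UMI and at least 2 UMIs of Ncr1, Klrb1c and Klre1, a rule that also takes other innate cells with these receptors. After the study's limits of 500 to 7500 genes and 15% mitochondrial UMIs, 3565 of 3728 Pgdfl/fl barcodes and 2798 of 3014 Pgdfl/fl LysMCre barcodes were kept, and the 6 types held 2583 of these 6363 cells. The Pgdfl/fl library gave 735 CD8, 246 CD4, 255 Foxp3-positive, 35 gamma-delta, 35 NK and 155 cycling T cells, and the Pgdfl/fl LysMCre library gave 467, 126, 244, 20, 65 and 200 cells of these types in the same order. The gamma-delta and NK values thus rest on few cells.

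The labels were checked on the targeted gene. In macrophages, defined here by at least 10 UMIs of the C1q genes, Pgd stood at 110.5 CPM (UMIs of a gene per 1000000 UMIs of the cells read) in Pgdfl/fl and at 30.7 CPM in Pgdfl/fl LysMCre, a log2 ratio of -1.85 (95% interval -2.11 to -1.60), whereas in CD8 cells the log2 ratio was 0.17 (-0.22 to 0.55). All 5 T cell marker genes were detected in each T cell type. In NK cells the same 5 genes summed to 455.5 CPM in Pgdfl/fl and 154.2 CPM in Pgdfl/fl LysMCre, against 2974 CPM or more in every T cell type. Cd3d, Cd3e and Cd3g are among these genes and also set the gates. Both observations were thus largely fixed in advance and do not check the types. No barcode was shared by the libraries, but for suspensions that were tagged and pooled this does not check the assignment of cells to a genotype. The median cell held between 3893 and 11562 UMIs over the types in Pgdfl/fl and between 3907 and 12320.5 in Pgdfl/fl LysMCre, with cycling T cells the deepest in both. Both suspensions were tagged and pooled, and cells also carried some of the other genotype's oligonucleotide, for a reason that was not tested. This oligonucleotide made up over 10% of the tag counts in 80.5% of Pgdfl/fl and 57.0% of Pgdfl/fl LysMCre CD8 cells, but in 5.76% and 2.36% of macrophages.

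Markers of other cells and states also differed between the libraries. The 8 macrophage genes used as a limit summed to 204.4 CPM in Pgdfl/fl and 526.7 CPM in Pgdfl/fl LysMCre CD8 cells and to 341.9 and 1111 CPM in CD4 cells, and they were higher in Pgdfl/fl LysMCre in all 6 types, with 8 of 8 detected in CD8, CD4, Foxp3-positive and cycling T cells of both libraries. Macrophages themselves held 20550 and 15407 CPM of these genes. One of the 8 is Lyz2, the gene that carries Cre, which was at 3491 CPM in Pgdfl/fl and 12.7 CPM in Pgdfl/fl LysMCre macrophages. Gates without Lyz2 moved 1 of 41 ratios beyond its interval, that of Gzma in cycling T cells. These gates added cells in Pgdfl/fl only, with 738 instead of 735 CD8 and 157 instead of 155 cycling T cells. The share of cells with a UMI of Ccr7 or Lef1, genes of naive and resting lymphocytes, was 44.9% and 33.4% in CD8 cells, 62.6% and 50.8% in CD4 cells and 57.1% and 10% in gamma-delta cells, lower in Pgdfl/fl LysMCre. In Foxp3-positive (45.5% and 49.6%), NK (20% and 26.2%) and cycling T cells (52.3% and 56.5%) it was higher there. NK cells held 4 UMIs of the cell cycle genes in Pgdfl/fl and 204 in Pgdfl/fl LysMCre. The part of these differences in the results was not tested, except where values without the cells concerned are given.

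Intervals are exact 95% intervals, Poisson for a level, conditional binomial for a ratio of levels and Clopper-Pearson for a share of cells. They cover counting error only and say nothing of the spread between mice. They treat UMIs as independent, so they are too narrow wherever a few cells hold most UMIs of a gene, and for the ratios this touches most the number of such cells is given. Counts from the 3′ end of transcripts have no per-length scale, so levels of different genes were not compared with each other.

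Of the granzyme genes, Gzmb to Gzmf lie together on the minus strand of chromosome 14 (GRCm38.p6), in 144.716 kb from chr14:56117619-56262334, in the order Gzme, Gzmd, Gzmf, Gzmc and Gzmb. Gzma (chr13:113093824-113100981) and Gzmk (chr13:113171630-113180965) are neighbours on chromosome 13 within 87.142 kb, Prf1 (chr10:61297751-61304684) and Ifng (chr10:118441046-118445894) lie apart from each other on chromosome 10, and Nkg7 lies at chr7:43437138-43438246. The 130 bases before the RefSeq transcript start are shown for the 5 genes of the chromosome 14 cluster, because Gzmc, Gzmd, Gzme and Gzmf, neighbours in this cluster, were counted in very different numbers of cells. They are written 5′ to 3′ on the strand of the gene. The capitals mark the AP-1 letters TGANTCA in Gzmb, and in the others the 8 bases nearest to the cAMP response element TGACGTCA.
Gzmb: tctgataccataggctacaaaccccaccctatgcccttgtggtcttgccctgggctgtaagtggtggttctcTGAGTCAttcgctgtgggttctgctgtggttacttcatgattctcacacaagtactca
Gzmc: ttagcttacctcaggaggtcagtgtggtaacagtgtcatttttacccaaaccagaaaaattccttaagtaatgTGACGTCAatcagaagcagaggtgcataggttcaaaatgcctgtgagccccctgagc
Gzmd: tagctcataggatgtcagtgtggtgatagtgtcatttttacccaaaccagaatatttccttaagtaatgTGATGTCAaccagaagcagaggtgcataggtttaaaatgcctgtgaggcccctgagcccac
Gzme: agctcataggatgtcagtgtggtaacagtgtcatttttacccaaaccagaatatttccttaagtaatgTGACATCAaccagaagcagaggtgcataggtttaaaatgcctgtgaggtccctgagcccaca
Gzmf: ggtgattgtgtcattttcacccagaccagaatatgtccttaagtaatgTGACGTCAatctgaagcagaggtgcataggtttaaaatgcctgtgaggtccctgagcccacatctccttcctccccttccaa
The windows are chr14:56262335-56262464 for Gzmb, chr14:56234658-56234787 for Gzmc, chr14:56132594-56132723 for Gzmd, chr14:56120626-56120755 for Gzme and chr14:56211408-56211537 for Gzmf. Those of Gzmc and Gzmd precede transcripts that start inside the outer limits of the genes.

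Gzmd and Gzme, the closest pair, shared 94.7% of the aligned bases of these windows, Gzmc and Gzmd 86.6%, Gzmc and Gzmf 60.6%, and Gzmb and Gzmc 45.6%. A block of 20 bases was identical in Gzmc, Gzmd, Gzme and Gzmf and lies a few bases after the capitals. The element was complete in Gzmc and Gzmf, and differed by C4T in Gzmd and by G5A in Gzme, counted from 1 at the 5′ end of TGACGTCA. Searched on both strands in windows from 250 bases before to 50 after the start of 27025 genes, TGACGTCA was in 1.88% of windows and in 2 of the 10 members (Gzmc and Gzmf), and TGANTCA in 7.93% and in 1 member (Gzmb). The Runx letters TGTGGT were in 16.9% of windows and in 8 of 10 members, all but Gzmk and Ifng, and the T-box letters TCACACCT in 1.27% and in 1 member (Nkg7). These are matches of letters, not binding sites. Towards the end of the transcript, where the reads of this assay lie, Gzmd shared 21 runs of 50 bases with Gzme and 22 with Gzmf, and Gzmc and Gzmb shared none with any of the 7 granzymes. Counts of Gzmd, Gzme and Gzmf are therefore uncertain, since reads from shared stretches cannot be given to 1 gene.

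The 10 genes differed in which lymphocytes held them (see the plot of CPM by type). CD8 cells held 39.9% of all Gzma UMIs of the Pgdfl/fl library and 23.5% of those of the Pgdfl/fl LysMCre library, and NK cells, although only 0.982% and 2.32% of kept cells, held 26.1% and 28.4%. B cells and macrophages, which should lack these genes, gave the background. After thinning every cell to 2000 UMIs, so that depth was equal, no member was counted in 93.9% of Pgdfl/fl and 87.5% of Pgdfl/fl LysMCre B cells or in 95.5% and 94.2% of macrophages. The same was true of 16.1% and 8.23% of CD8 cells, 57.9% and 45.5% of CD4 cells, 24.2% and 27.8% of Foxp3-positive cells, and 2.86% and 6.45% of NK cells. At least 3 of the 10 genes were counted together in 80.0% and 69.4% of NK cells and in 26.3% and 30.5% of CD8 cells, but in 5.42% and 3.25% of CD4 cells and 1.64% and 2.14% of Foxp3-positive cells. NK cells thus carried the fullest set in both libraries, and Foxp3-positive cells usually carried 1 gene, which was Gzmb.

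**Figure D1:**
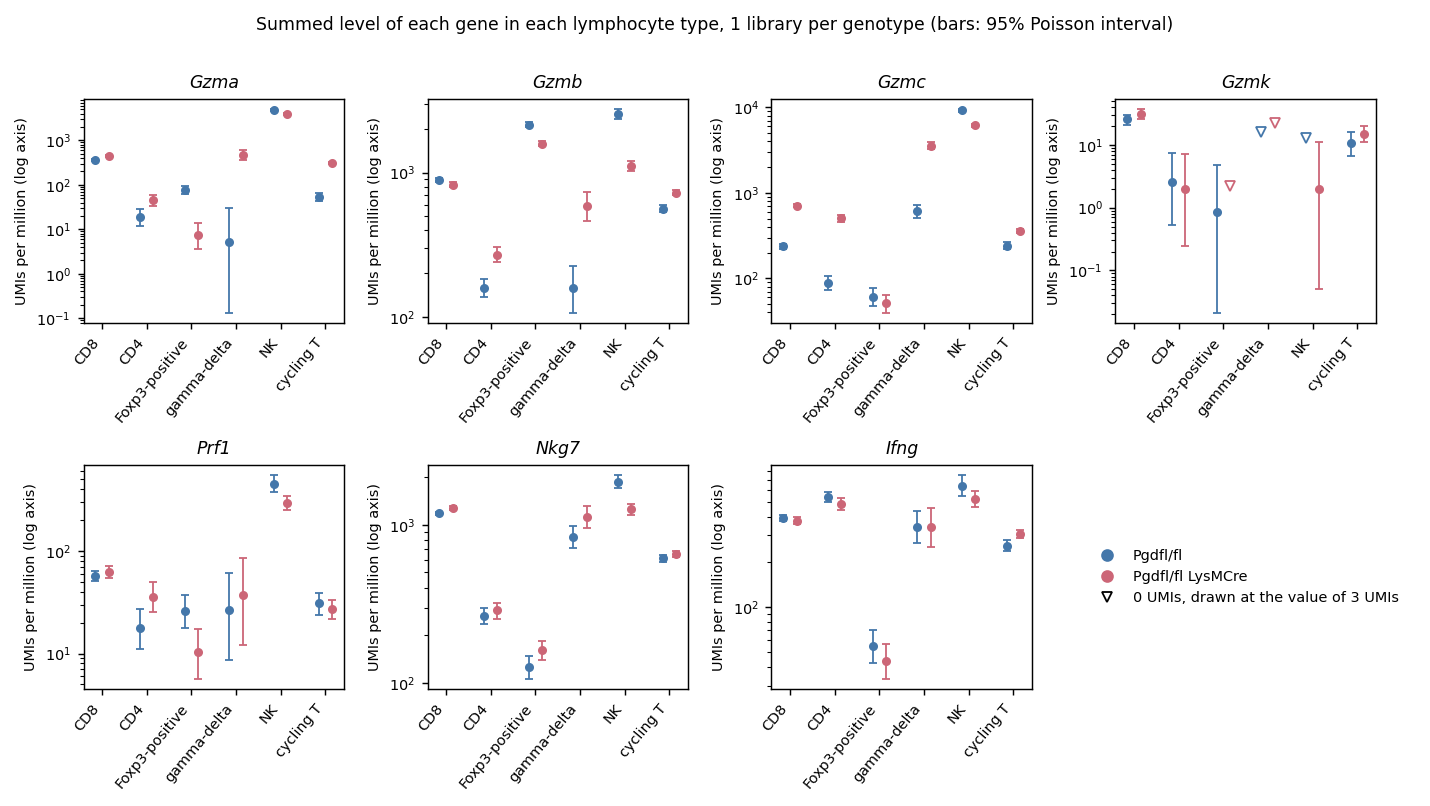
CPM (log axis) of 7 members in the 6 lymphocyte types, with 1 point per library and 95% Poisson bars; an open triangle marks 0 UMIs and is drawn at the value of 3 UMIs. Gzma, Gzmc and Prf1 have their highest points in NK cells of both libraries, and the highest points of Gzmk are those of CD8 cells.

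Between the libraries, the members moved differently in each type. Past a 2-fold difference, with at least 20 UMIs over both libraries, were 2 of 8 members higher and 0 lower in Pgdfl/fl LysMCre CD8 cells (Gzmc and Gzmf), beside 6.39% of 10336 genes higher and 1.26% lower. In CD4 cells 3 of 8 members were higher (Gzma, Gzmc and Prf1) and 2 lower (Gzmd and Gzme), beside 9.02% of genes higher and 3.36% lower. In Foxp3-positive cells 0 of 6 were higher and 2 lower (Gzma and Prf1), beside 5.31% and 1.84%. In gamma-delta cells 3 of 5 were higher (Gzma, Gzmb and Gzmc) and 0 lower, beside 4.96% and 6.17%, and in NK cells 0 of 6 were higher and 1 was lower (Gzmb), beside 8.09% and 3.72%. In cycling T cells 1 of 8 was higher (Gzma) and 0 lower, beside 3.66% and 1.46%. Some members met the minimum of UMIs only through the library where they were high. These were Gzmf in CD8 (1 and 32 UMIs), Gzma in gamma-delta (1 and 64), and Gzmd (38 and 0) and Gzme (59 and 0) in CD4 cells. The medians given next for CD8, CD4 and gamma-delta cells include them too. No conclusion is drawn from their place in these counts or from those medians.

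The median log2 ratio of Pgdfl/fl LysMCre over Pgdfl/fl over the members counted was 0.22 in CD8 cells (0.12 over all genes), 0.44 in CD4 cells (0.10), -0.38 in Foxp3-positive cells (0.00), 1.88 in gamma-delta cells (-0.01), -0.58 in NK cells (0.03) and 0.31 in cycling T cells (0.03). All 6 members counted in NK cells had a ratio below 0, but 5 of them, all but Gzma, turned above 0 in at least 1 of the 13 other settings, with highest values of 0.64 for Gzmb, 0.38 for Gzmc, 0.17 for Prf1, 0.22 for Nkg7 and 4.40 for Ifng. Gzmc in CD8 cells and Gzma in cycling T cells stayed past 2-fold in the same direction in all 13 other settings that gave a value. Many of the other ratios past 2-fold in the plot of log2 ratios belonged to genes with most of their UMIs in 1 or 2 cells, as given gene by gene below.

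**Figure D2:**
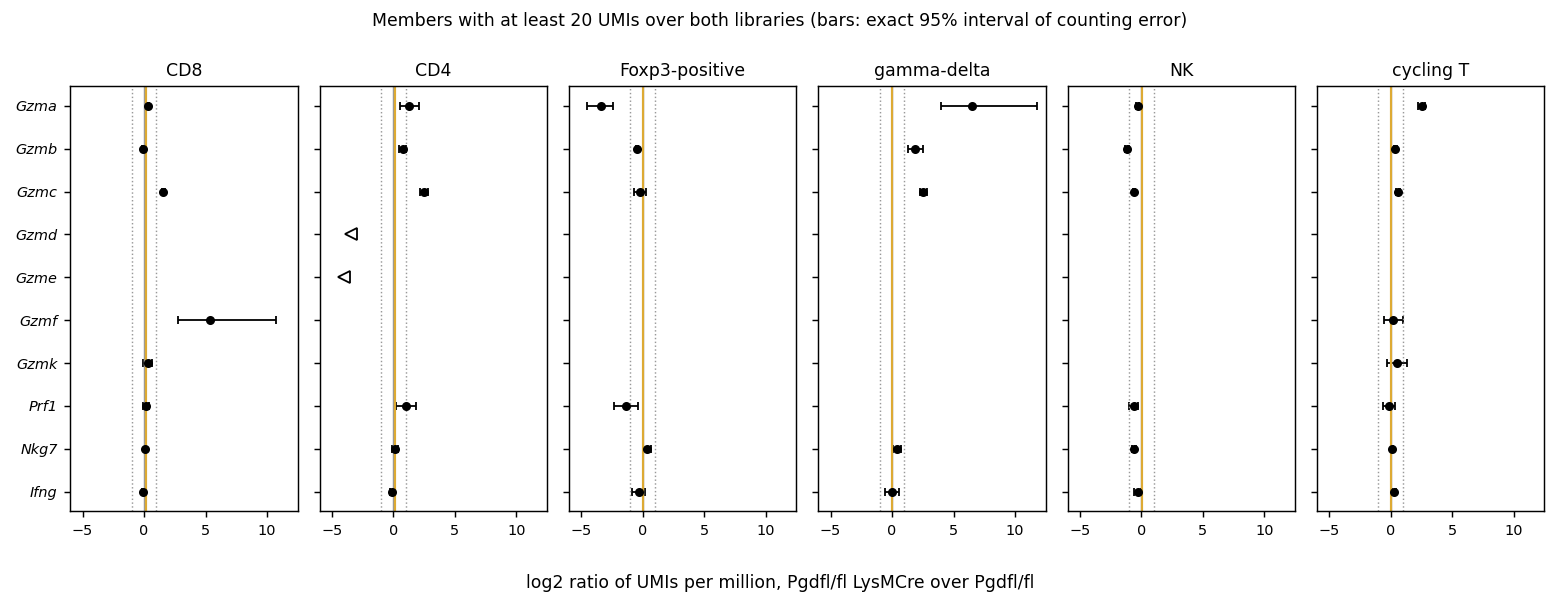
Log2 ratios of Pgdfl/fl LysMCre over Pgdfl/fl for members with at least 20 UMIs, 1 panel per lymphocyte type, with 95% conditional intervals; dotted lines mark 2-fold, the yellow line is the median of all genes, and open arrowheads are bounds where a library had 0 UMIs. The points of Gzmb, Nkg7 and Ifng lie near 0 in CD8 cells while Gzmc (1.58) and Gzmf (5.37) lie past 2-fold.

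Gzma encodes a tryptase that is abundant in resting NK cells. Its level was 355.0 CPM (95% interval 338.4 to 372.3) in Pgdfl/fl and 440.3 CPM (419.3 to 462.1) in Pgdfl/fl LysMCre CD8 cells, a log2 ratio of 0.31 (0.21 to 0.41). These UMIs came from 70 of 735 and 60 of 467 cells, 9.52% and 12.8%, and after thinning from 5.93% (4.33 to 7.91) and 8.44% (6.07 to 11.4). The intervals of the shares overlapped. The 5 CD8 cells richest in Gzma held 54.1% of its UMIs in Pgdfl/fl and 43.8% in Pgdfl/fl LysMCre, the most 427 and 202 UMIs in a single cell. Without cells with over 10% of the other library's oligonucleotide the log2 ratio was 1.26 (0.996 to 1.54).

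In NK cells Gzma was at 4821 CPM (4543 to 5112) in Pgdfl/fl and 3922 CPM (3752 to 4099) in Pgdfl/fl LysMCre, with a UMI in 23 of 35 and 45 of 65 cells and, after thinning, in 60.0% and 62.9%. The log2 ratio was -0.30 (-0.40 to -0.19). NK cells had the highest Gzma level of the 6 types in both libraries, followed by CD8 cells in Pgdfl/fl, and in Pgdfl/fl LysMCre by gamma-delta, CD8 and cycling T cells, of which the gamma-delta and CD8 intervals overlapped.

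In cycling T cells, which hold T cells of several kinds in the cell cycle, Gzma was at 53.9 CPM (44.4 to 64.8) in Pgdfl/fl and 311.2 CPM (291.8 to 331.5) in Pgdfl/fl LysMCre, 5.78-fold higher (log2 ratio 2.53, 2.25 to 2.83). It was counted in 12 of 155 and 37 of 200 cells, 7.74% and 18.5%, and after thinning in 1.94% (0.401 to 5.55) and 9.5% (5.82 to 14.4), intervals that did not overlap. The richest cell held 57.1% of the UMIs in Pgdfl/fl and 30.6% in Pgdfl/fl LysMCre. The ratio lay between 1.41 and 5.39 in the 13 other settings, the lowest when Lyz2 was left out of the gates, a setting chosen after seeing the data. That setting held 157 instead of 155 Pgdfl/fl cells and the same 200 Pgdfl/fl LysMCre cells, so the size of the ratio depended on very few Pgdfl/fl cells. The thinned share was 1.18% and 1.12% in macrophages, and 1.21% and 3.12% (0.0791 to 16.2) in B cells. Only the Pgdfl/fl LysMCre interval of cycling cells lay above that of macrophages, and it overlapped that of B cells. Cells with a Cd8a or Cd8b1 UMI and no Cd4 or Foxp3 UMI made up 43.9% of the cycling cells in Pgdfl/fl and 49.5% in Pgdfl/fl LysMCre, and within them Gzma was at 99.7 and 562.6 CPM, counted in 10.3% (4.24 to 20.1) and 20.2% (12.8 to 29.5) of cells, intervals that overlapped.

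In the other 3 types Gzma came from few cells. In CD4 cells it was at 18.5 CPM in Pgdfl/fl (22 UMIs in 13 cells) and 44.9 CPM in Pgdfl/fl LysMCre (45 UMIs in 6 cells), a log2 ratio of 1.28 (0.51 to 2.08), but 1 Pgdfl/fl LysMCre cell held 35 of the 45 UMIs and without the richest cell of each library the ratio was -0.30. In Foxp3-positive cells, 92 Pgdfl/fl UMIs from 5 cells and 10 Pgdfl/fl LysMCre UMIs from 6 cells gave 77.7 and 7.40 CPM and a log2 ratio of -3.39 (-4.50 to -2.45), with 2 Pgdfl/fl cells holding 96.7% of the UMIs. In gamma-delta cells there was 1 UMI in Pgdfl/fl and 64 in Pgdfl/fl LysMCre, 63 of them in 1 cell, which is a ratio of 89.6-fold (log2 6.49, 3.96 to 11.81). Thinned shares in these types ranged from 0% to 5%, and the 2 libraries did not differ beyond their intervals.

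Gzmk, the neighbour of Gzma, encodes another tryptase and is used as a marker of CD8 cells at an earlier stage of effector or exhausted differentiation. Among the 6 types it was counted mostly in CD8 and cycling T cells. In CD8 cells it was at 25.3 CPM (122 UMIs in 76 cells) in Pgdfl/fl and 31.1 CPM (116 UMIs in 65 cells) in Pgdfl/fl LysMCre, a log2 ratio of 0.30 (-0.08 to 0.68), and it was spread thinly, with at most 7 and 6 UMIs in a cell. Without cells with over 10% of the other library's oligonucleotide the log2 ratio was 1.71 (0.71 to 2.85), from 10 and 51 UMIs. In cycling T cells it was at 10.6 CPM (22 UMIs) and 14.9 CPM (46 UMIs), a log2 ratio of 0.49 (-0.27 to 1.30). The other types held 3 and 2 UMIs in CD4 cells, 1 and 0 in Foxp3-positive cells, and 0 and 1 in NK cells. In gamma-delta cells Gzmk was counted in 0 of 35 and 0 of 20 cells, where the floor of 3 counts is a share of 8.57% and 15% and the exact two-sided interval ends at 10% and 16.8% of cells with a UMI. Of all Gzmk UMIs, CD8 cells held 62.6% and 53.7%.

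Gzmb, the granzyme that cleaves caspases, was the most widely held granzyme. It was counted in 381 of 735 Pgdfl/fl and 297 of 467 Pgdfl/fl LysMCre CD8 cells, 51.8% and 63.6%, and after thinning in 41.5% (37.9 to 45.2) and 49.4% (44.7 to 54.0). The summed level did not follow this share: it was 890.1 CPM (863.7 to 917.1) in Pgdfl/fl and 826.0 CPM (797.1 to 855.7) in Pgdfl/fl LysMCre, a log2 ratio of -0.11 (-0.18 to -0.04). The 5 richest CD8 cells held 10.7% and 10.1% of the UMIs, so no small group of cells set the level.

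Foxp3-positive cells, the regulatory T cells by this marker, had a higher Gzmb level than CD8 cells in both libraries, 2152 CPM (2069 to 2237) in Pgdfl/fl and 1591 CPM (1524 to 1659) in Pgdfl/fl LysMCre. It was counted in 77.6% and 75.0% of cells, and in 70.1% (63.9 to 75.8) and 64.5% (58.0 to 70.6) after thinning. The log2 ratio was -0.44 (-0.52 to -0.35) and was below 0 in all 13 other settings, from -0.58 to -0.20. The intervals of the thinned shares overlapped. At least 10 UMIs were found in 36.1% and 29.9% of cells.

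In NK cells Gzmb was at 2557 CPM (2355 to 2770) in Pgdfl/fl and 1115 CPM (1025 to 1211) in Pgdfl/fl LysMCre, a log2 ratio of -1.20 (-1.37 to -1.03). This rested on a single Pgdfl/fl cell with 376 of the 595 UMIs, and without the richest cell of each library the log2 ratio was -0.20. Thinned shares were 60.0% (42.1 to 76.1) and 50% (37.0 to 63.0), which overlapped.

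CD4 cells held Gzmb at 159.2 CPM in 17.5% of Pgdfl/fl cells and at 270.6 CPM in 28.6% of Pgdfl/fl LysMCre cells, a log2 ratio of 0.77 (0.49 to 1.04), with overlapping thinned shares of 12.9% (8.95 to 17.8) and 20.3% (13.6 to 28.5). In gamma-delta cells 9 of 35 and 12 of 20 cells held it, at 158.6 and 585.0 CPM, a log2 ratio of 1.88 (1.26 to 2.54). Without a limit on macrophage and B cell genes this ratio was -0.21. Thinned shares of 18.2% (6.98 to 35.5) and 35.0% (15.4 to 59.2) overlapped. In cycling T cells it was at 563.2 and 727.8 CPM (log2 ratio 0.37, 0.27 to 0.47), in 45.8% and 42.0% of thinned cells. Thinned shares in B cells (1.62% and 3.12%) and macrophages (1.18% and 2.46%) lay below those of all 6 types. The interval of the Pgdfl/fl LysMCre B cells (0.0791 to 16.2) overlapped those of CD4 and gamma-delta cells of that library.

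**Figure D3:**
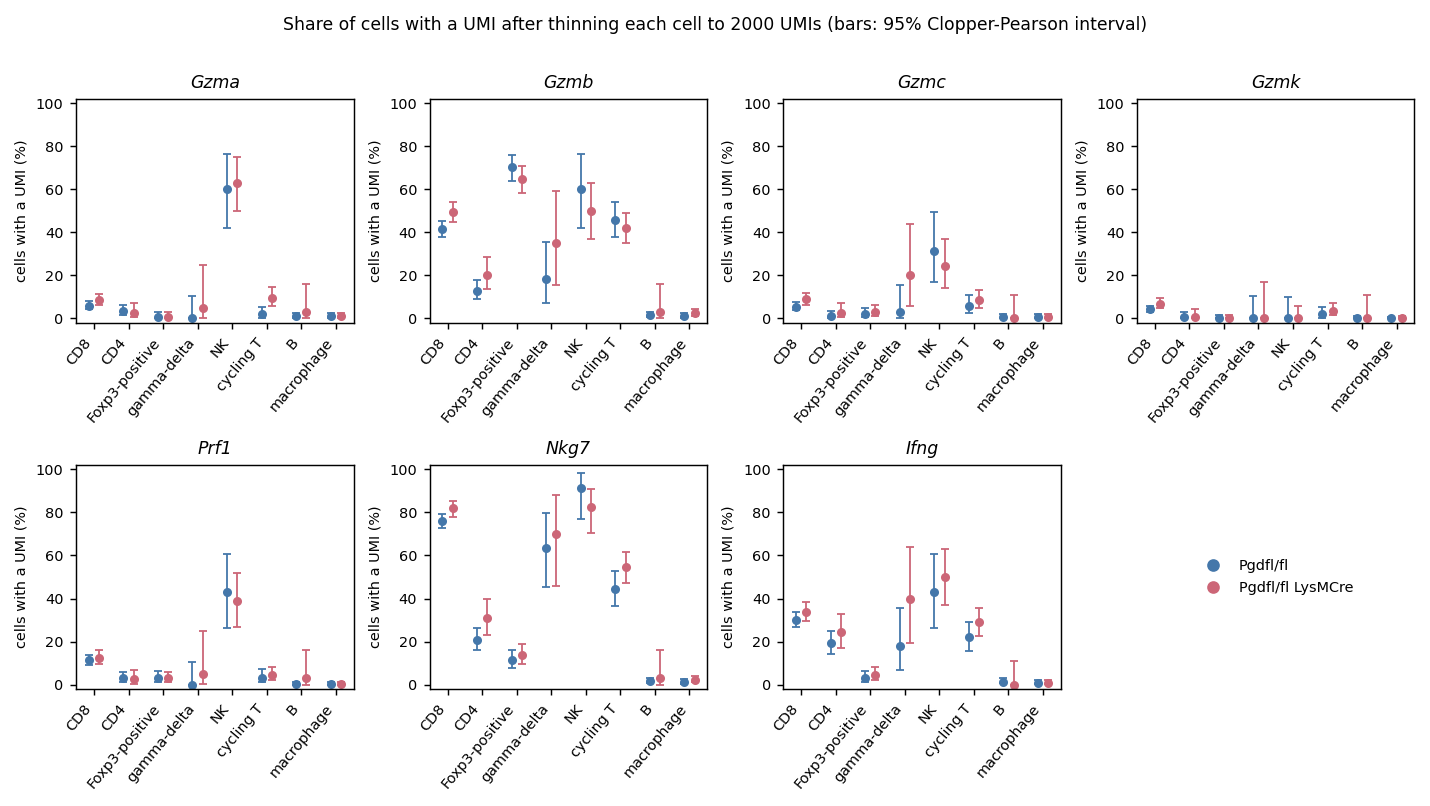
Percent of cells with a UMI after thinning every cell to 2000 UMIs, for the same 7 members in the 6 lymphocyte types and in B cells and macrophages, with exact 95% Clopper-Pearson bars per library. The Gzmb shares of all 6 types stand above those of B cells and macrophages. In Pgdfl/fl LysMCre the B cell interval of Gzmb overlaps those of CD4 and gamma-delta cells. The intervals of Gzma in CD4 and Foxp3-positive cells overlap with those of B cells and macrophages.

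Gzmc, a granzyme of the chromosome 14 cluster, was held by few cells at a high level each. In CD8 cells it was at 236.6 CPM (223.0 to 250.7) in Pgdfl/fl and 706.1 CPM (679.4 to 733.5) in Pgdfl/fl LysMCre, 2.98-fold higher (log2 ratio 1.58, 1.48 to 1.68). It was counted in 68 and 72 cells, 9.25% (7.26 to 11.6) and 15.4% (12.3 to 19.0), and after thinning in 5.52% (3.97 to 7.44) and 8.87% (6.44 to 11.9), where the intervals overlapped. At least 10 UMIs of it were found in 13 of 735 cells (1.77%) and 20 of 467 cells (4.28%). In each library 4 cells held 50% of the UMIs, the most 187 and 462 in a single cell. The log2 ratio was between 1.26 and 2.39 in the 13 other settings, including those without the richest cells.

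The plot of UMIs held by the richest CD8 cells shows how far the members differed in this respect. The 5 richest CD8 cells held 63.6% of Gzmc UMIs in Pgdfl/fl and 61.3% in Pgdfl/fl LysMCre, but 13.1% and 17.2% of Ifng UMIs and 2.96% and 5.93% of Nkg7 UMIs. Gzma and Gzmc were thus genes of a small part of the CD8 cells in both libraries, and Nkg7 a gene of nearly all of them.

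**Figure D4:**
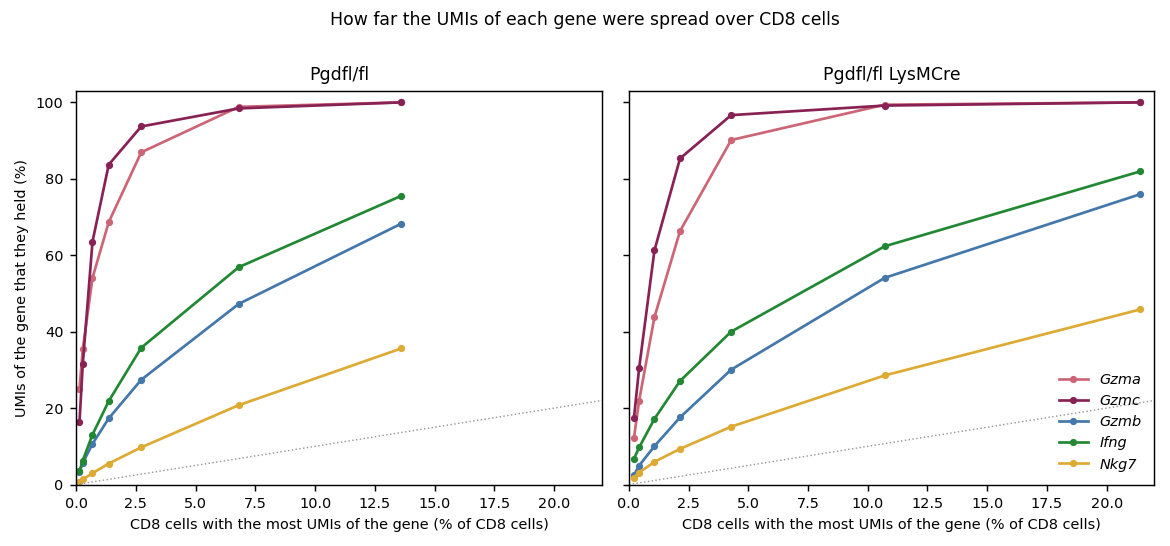
Percent of a gene's UMIs held by the richest CD8 cells, against the percent of CD8 cells counted from the richest down, with 1 panel per library; the dotted line is an equal spread over cells. The curves of Gzma and Gzmc pass 40% within the 5 richest cells in both libraries, while that of Nkg7 stays closest to the dotted line.

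NK cells had the highest Gzmc level of the 6 types, 9212 CPM (8826 to 9611) in Pgdfl/fl and 6174 CPM (5960 to 6395) in Pgdfl/fl LysMCre, from 13 of 35 and 17 of 65 cells, a log2 ratio of -0.58 (-0.66 to -0.50). The 5 richest NK cells held 86.0% and 75.5% of these UMIs. Gamma-delta cells came next, with 608.1 CPM from 1 of 35 Pgdfl/fl cells and 3555 CPM from 8 of 20 Pgdfl/fl LysMCre cells (log2 ratio 2.55, 2.25 to 2.85). Of the 480 Pgdfl/fl LysMCre UMIs, 2 cells held 90.8%, so the ratio compares 1 cell with chiefly 2, and with gates on thinned counts it turned to -1.15. Their thinned shares of 3.03% (0.0767 to 15.8) and 20% (5.73 to 43.7) overlapped. In cycling T cells Gzmc was at 241.5 and 355.8 CPM, in 16.8% and 17.0% of cells (log2 ratio 0.56, 0.41 to 0.71), and 1 Pgdfl/fl cell held 345 of 502 UMIs, so that without the richest cell of each library the ratio was 1.93. In CD4 cells 1 cell held 91 of 105 UMIs in Pgdfl/fl and 1 held 467 of 503 in Pgdfl/fl LysMCre, and the log2 ratio of 2.51 (2.20 to 2.82) compares chiefly these 2 cells. In Foxp3-positive cells the levels of 60.8 and 51.1 CPM differed by a log2 ratio of -0.25 (-0.75 to 0.25), also with 1 cell holding most UMIs in each library.

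Gzma and Gzmc, both highest in NK cells, were mostly found in different NK cells. After thinning, Gzmc was counted in 2 of 21 Pgdfl/fl NK cells with Gzma (9.52%, 1.17 to 30.4) and in 9 of 14 without (64.3%, 35.1 to 87.2). The same held in Pgdfl/fl LysMCre, with 2 of 39 (5.13%, 0.627 to 17.3) and 13 of 23 (56.5%, 34.5 to 76.8). The cells without Gzma were the deeper ones before thinning, with medians of 7070.5 and 12113 UMIs against 3977 and 3769, and the gate does not separate NK cells from related innate cells. The part of both in this difference was not tested. In CD8 cells Gzmc was counted in 1 of 43 and 3 of 39 cells with Gzma (2.33%, 0.0589 to 12.3, and 7.69%, 1.62 to 20.9) and in 5.72% and 8.98% of those without, shares whose intervals overlapped. At full depth they were 8.57% and 21.7% with and 9.32% and 14.5% without.

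Gzmd, Gzme and Gzmf were near absent from most types, with 42, 63 and 32 UMIs in all kept Pgdfl/fl cells and 19, 25 and 78 in all kept Pgdfl/fl LysMCre cells. In CD8 cells Gzmd was not counted in either library (0 of 735 and 0 of 467 cells, where the floor of 3 counts is a share of 0.408% and 0.642% and the exact intervals end at 0.501% and 0.787%), and Gzme was counted in 0 Pgdfl/fl cells and, with 2 UMIs, in 1 Pgdfl/fl LysMCre cell. Gzmf, by contrast, had 1 UMI in Pgdfl/fl and 32 UMIs in 5 Pgdfl/fl LysMCre CD8 cells, a ratio of 41.3-fold (log2 5.37, 2.79 to 10.72), 16 of them in 1 cell. After thinning it had 0 and 7 UMIs, a log2 ratio of 1.87 against the floor of 3 UMIs, and with gates on thinned counts the log2 ratio was 6.51. In cycling T cells Gzmf had 25 and 43 UMIs, of which 24 and 42 were in 1 cell each (log2 ratio 0.21). The remaining counts, apart from those of Gzmd and Gzme in CD4 cells, were low. NK cells held 0 and 8 UMIs of Gzmd, 1 and 5 of Gzme and none of Gzmf, and Foxp3-positive cells 0 and 2 of Gzmd, 0 and 3 of Gzme and 1 and 2 of Gzmf. Cycling T cells held 0 and 1 of Gzmd and 1 and 2 of Gzme, CD4 cells 4 and 0 of Gzmf, and gamma-delta cells none of the 3 genes.

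CD4 cells were the exception for Gzmd and Gzme. In Pgdfl/fl, 4 CD4 cells held 38 Gzmd UMIs and 7 held 59 Gzme UMIs, whereas both were at 0 UMIs in the 126 Pgdfl/fl LysMCre CD4 cells, where the floor of 3 counts is a share of 2.38% and the exact two-sided interval ends at 2.89%. Set against a floor of 3 UMIs in the library, Gzmd was 10.7-fold lower and Gzme 16.6-fold lower in Pgdfl/fl LysMCre. The exact intervals of their log2 ratios ended nearer to 0, at -3.05 and -3.71. For Gzmd, 31 of the 38 UMIs were in 1 cell, and without it the log2 ratio against the same floor was -0.97. The shares of cells, 1.63% (0.445 to 4.11) for Gzmd and 2.85% (1.15 to 5.78) for Gzme in Pgdfl/fl, overlapped that interval. Since Gzmd and Gzme share runs of bases, part of these UMIs may belong to either gene.

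Prf1, which encodes the pore-forming protein, was highest in NK cells of both libraries, at 455.5 CPM (372.9 to 550.9) in Pgdfl/fl and 296.5 CPM (251.0 to 348.0) in Pgdfl/fl LysMCre, in 23 of 35 and 39 of 65 cells. The log2 ratio was -0.62 (-0.99 to -0.25), and thinned shares of 42.9% (26.3 to 60.7) and 38.7% (26.6 to 51.9) overlapped. CD8 cells held 57.2 CPM (50.6 to 64.3) and 62.9 CPM (55.1 to 71.5), a log2 ratio of 0.14 (-0.12 to 0.39), with a UMI in 27.3% and 30.8% of cells. The interval of the ratio in CD8 cells thus included 0. Cycling T cells held 30.8 and 27.2 CPM (log2 ratio -0.18, -0.67 to 0.31).

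Foxp3-positive cells, although rich in Gzmb, held little Prf1. It was at 26.2 CPM (31 UMIs in 18 cells) in Pgdfl/fl and 10.4 CPM (14 UMIs in 12 cells) in Pgdfl/fl LysMCre, a log2 ratio of -1.34 (-2.36 to -0.38), with thinned shares of 3.28% (1.43 to 6.36) and 2.99% (1.21 to 6.07). Only 2.92% and 3.31% of thinned Foxp3-positive cells with Gzmb also held Prf1, against 16.9% and 13.6% of CD8 cells and 47.6% and 58.1% of NK cells with Gzmb. In CD4 cells Prf1 was at 17.7 and 36.0 CPM (log2 ratio 1.02, 0.21 to 1.87), and 27 of the 36 Pgdfl/fl LysMCre UMIs came from 1 cell, without which the ratio turned to -0.64. Gamma-delta cells held 5 UMIs in each library.

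Nkg7, a membrane protein of cytotoxic granules needed for their release, was the most widespread member in CD8, CD4, gamma-delta and NK cells. It was counted in 89.7% of Pgdfl/fl and 94.2% of Pgdfl/fl LysMCre CD8 cells, in 35 of 35 and 62 of 65 NK cells, in 74.3% and 80.0% of gamma-delta cells and in 65.2% and 80.0% of cycling T cells. In CD8 cells its level was 1181 CPM (1150 to 1212) and 1268 CPM (1232 to 1305), a log2 ratio of 0.10 (0.05 to 0.16), close to the median of all genes in these cells (0.12). In NK cells it was at 1873 CPM (1702 to 2058) and 1251 CPM (1156 to 1353), a log2 ratio of -0.58 (-0.76 to -0.40). Pgdfl/fl NK cells therefore had the highest level of the 6 types, while in Pgdfl/fl LysMCre the intervals of NK, CD8 and gamma-delta cells overlapped.

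In CD4 cells Nkg7 was counted in 67 of 246 and 61 of 126 cells, 27.2% and 48.4%, and after thinning in 20.8% (15.9 to 26.5) and 30.9% (22.9 to 39.9), while the summed level was 265.3 and 287.6 CPM (log2 ratio 0.12, -0.12 to 0.35). More of the Pgdfl/fl LysMCre cells had a UMI, but the level in CPM did not differ beyond counting error. Foxp3-positive cells held the least, 125.8 and 161.4 CPM (log2 ratio 0.36, 0.05 to 0.67). Gamma-delta cells held 840.8 and 1118 CPM (0.41, 0.08 to 0.74), and cycling T cells 612.8 and 655.7 CPM (0.10, 0.00 to 0.20).

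Ifng, the cytokine that activates macrophages and induces antigen presentation, differed by less than 2-fold between the libraries in each of the 6 types as gated here. This did not hold in every other setting for the types with few cells or with UMIs in few cells. Without cells with over 10% of the other library's oligonucleotide the log2 ratio was -1.58 in CD4, -3.25 in gamma-delta (7 and 1 UMIs) and 4.40 in NK cells (1 and 146 UMIs), and without the 5 richest cells it was 1.74 in gamma-delta cells. Without cells with a Ccr7 or Lef1 UMI, a setting chosen after seeing the data, it was -1.23 in CD4 cells. In CD8 cells it was at 392.9 CPM (375.5 to 411.0) in Pgdfl/fl and 375.3 CPM (355.9 to 395.4) in Pgdfl/fl LysMCre, a log2 ratio of -0.07 (-0.17 to 0.03), with a UMI in 45.3% and 55.2% of cells and, after thinning, in 30.2% (26.9 to 33.7) and 33.8% (29.5 to 38.3). CD4 cells held 539.9 CPM (498.9 to 583.3) and 488.3 CPM (446.0 to 533.6), a log2 ratio of -0.14 (-0.32 to 0.03), but with a UMI in only 24.4% and 38.9% of cells, and the 5 richest CD4 cells held 48.5% and 57.7% of the UMIs. NK cells held 644.5 CPM (545.5 to 756.3) and 521.9 CPM (460.9 to 588.8), a log2 ratio of -0.30 (-0.60 to -0.01). The levels of CD4 and NK cells overlapped in both libraries and were above those of CD8 cells.

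Gamma-delta cells held Ifng at 343.7 and 340.7 CPM (log2 ratio -0.01, -0.59 to 0.55), and it was counted in 10 of 35 and 12 of 20 of them. Cycling T cells held 256.4 CPM (235.1 to 279.1) and 307.0 CPM (287.8 to 327.2), a log2 ratio of 0.26 (0.11 to 0.42), which was the one type in which the interval lay above 0. After thinning this ratio turned to -0.11, and the 5 richest cycling T cells held 42.2% and 27.8% of the UMIs. Foxp3-positive cells held 54.9 and 43.7 CPM (log2 ratio -0.33, -0.86 to 0.20), in 5.88% and 8.61% of cells, the lowest of the 6 types. In the T cells that no marker placed, 365 and 228 cells, Ifng was at 121.1 and 268.0 CPM, a log2 ratio of 1.15.

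CD8 and CD4 cells were divided into those with and without a UMI of the naive genes Ccr7 or Lef1 (see the plot of shares by naive genes). No difference between the 2 kinds of cell, or between the libraries within them, was tested. CD8 cells with a UMI of Ccr7 or Lef1 held Gzmb, after thinning, in 23.8% (19.3 to 28.8) of 328 Pgdfl/fl cells and 45.5% (37.5 to 53.7) of 156 Pgdfl/fl LysMCre cells, intervals that did not overlap. CD8 cells without such a UMI held it in 56.2% (51.1 to 61.1) and 51.3% (45.6 to 57.0), the other way round and overlapping. In Pgdfl/fl the interval of the cells without naive genes thus lay above that of the cells with them, whereas in Pgdfl/fl LysMCre both intervals overlapped. Ifng followed the same order, with 17.7% and 27.6% of CD8 cells with naive genes and 40.6% and 36.9% of those without. Nkg7 was counted in 61.3% (55.8 to 66.6) and 73.1% (65.4 to 79.9) of the cells with naive genes and in 88.4% and 86.3% of those without. Before thinning, the CD8 cells with naive genes had a median of 6042.5 UMIs in Pgdfl/fl and 7637 in Pgdfl/fl LysMCre, and the part of this depth in the split was not tested. Summed over all CD8 cells, Ccr7 and Lef1 differed in opposite directions between the libraries (log2 ratios of 0.32 and -1.90), as they did over all CD4 cells (0.25 and -2.18), so the cells with naive genes were made up differently in the 2 libraries.

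CD4 cells with naive genes held Gzmb in 6.58% (3.20 to 11.8) of Pgdfl/fl and 20.3% (11.3 to 32.2) of Pgdfl/fl LysMCre cells, Nkg7 in 13.8% (8.76 to 20.3) and 31.2% (20.2 to 44.1), and Ifng in 11.8% (7.17 to 18.1) and 26.6% (16.3 to 39.1), and the intervals of all 3 genes overlapped. Those without held Gzmb in 23.9% and 20.3%, Nkg7 in 33.0% and 30.5%, and Ifng in 31.8% and 22.03%. The Pgdfl/fl LysMCre shares thus stood above those of Pgdfl/fl in the cells with naive genes and below them in the others, as for Gzmb in CD8 cells. Median depths of the CD4 cells with naive genes were 4441.5 and 6488 UMIs.

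**Figure D5:**
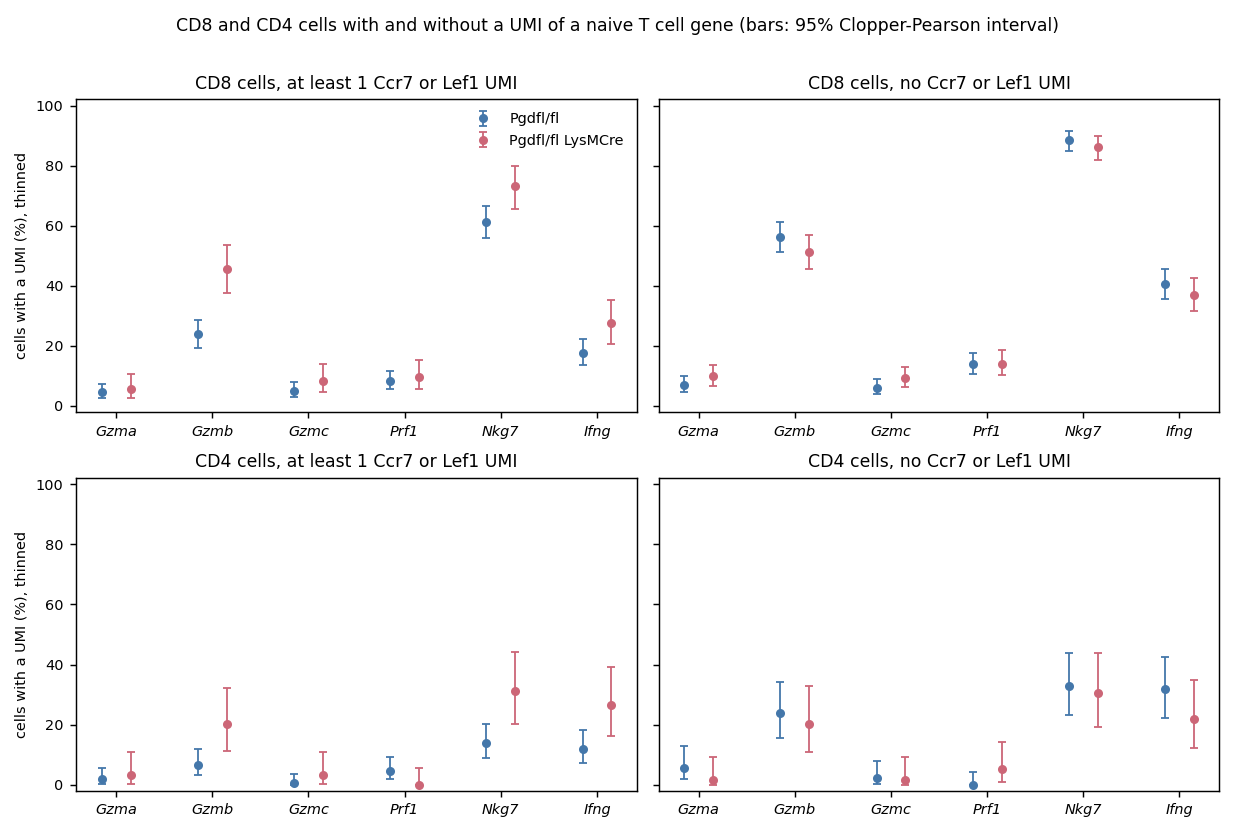
Percent of CD8 and CD4 cells with a UMI of 6 members after thinning to 2000 UMIs, divided into cells with and without a UMI of Ccr7 or Lef1, with exact 95% bars per library. Gzmb stands at 23.8% in Pgdfl/fl and 45.5% in Pgdfl/fl LysMCre CD8 cells with naive genes, and at 56.2% and 51.3% in those without.

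The members found beside Gzmb in the same CD8 cells were also read, and no difference between shares was tested. After thinning, Ifng was counted in 38.9% (33.3 to 44.6) of Pgdfl/fl CD8 cells with Gzmb and 24.1% (20.1 to 28.4) of those without. In Pgdfl/fl LysMCre these shares were 29.4% (23.6 to 35.8) and 38.0% (31.8 to 44.6). Between libraries, the thinned intervals in cells with Gzmb overlapped for Ifng, Prf1 and Nkg7, while those of Ifng in cells without Gzmb did not. At full depth the Pgdfl/fl LysMCre order was the other way, with Ifng in 58.2% (52.4 to 63.9) of cells with Gzmb and 50% (42.2 to 57.8) of those without, against 56.2% and 33.6% in Pgdfl/fl. Prf1 was counted in 16.9% (12.9 to 21.7) of Pgdfl/fl CD8 cells with Gzmb and 7.31% of those without, and in 13.6% (9.43 to 18.7) and 11.5% in Pgdfl/fl LysMCre. Nkg7 was counted in 88.4% and 67.5% in Pgdfl/fl, and in 86.4% and 77.4% in Pgdfl/fl LysMCre. Cells of a library are not replicates of its genotype, so these shares describe the 2 pools.

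The genes around the members were read from lists. Of 15 genes of granule formation and release, 13 were counted in CD8 cells, with 1 at least 2-fold higher and 0 lower in Pgdfl/fl LysMCre, near the 6.39% of all genes higher, and a median log2 ratio of 0.29 (0.12 over all genes). The one was Stx11, a syntaxin of granule fusion (1.09). In CD4 cells 4 of 12 were at least 2-fold higher, beside 9.02% of all genes, and the median was 0.68 (0.10 over all genes). These CD4 cells also held more of the 8 macrophage genes in Pgdfl/fl LysMCre (341.9 and 1111 CPM) and less of the 5 T cell genes (4736 and 2974 CPM). The part of this in the CD4 values was not tested. In Foxp3-positive, NK and cycling T cells the medians were 0.03, -0.17 and 0.11. The 4 chemokines secreted with granules, Ccl3, Ccl4, Ccl5 and Xcl1, had medians of 0.23 in CD8, 1.35 in CD4 (Ccl4 at 1.97, 1.77 to 2.17) and 0.68 in cycling T cells, where Xcl1, which attracts dendritic cells, stood at 1.199 (1.09 to 1.31). Their medians were below 0 in NK (-0.41, with ratios on both sides of 0), Foxp3-positive (-0.15) and gamma-delta cells (-0.05). In Foxp3-positive cells Xcl1 was lower (-2.87, -3.37 to -2.40). Foxp3-positive cells also held Serpinb6b, a protease inhibitor, at 1.24, Rab27a, which docks granules, at -0.77 and Ccr7 at 0.84.

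Most genes of naive and resting cells were lower in Pgdfl/fl LysMCre where CD8, CD4 and gamma-delta cells were read, but Ccr7, a homing receptor of lymph nodes, was higher in CD8 (log2 ratio 0.32, 0.17 to 0.46) and CD4 cells (0.25, 0.086 to 0.41). Of 6 counted, 1 was at least 2-fold lower in CD8 cells (median -0.77), 4 in CD4 cells (-1.25) and 4 in gamma-delta cells (-1.20), beside 1.26%, 3.36% and 6.17% of all genes lower and medians over all genes of 0.12, 0.10 and -0.01. Lef1, a transcription factor of naive T cells, was lower in CD8, CD4 and gamma-delta cells (-1.90, -2.18 and -2.51). Of the 6 in cycling T cells, 1 was at least 2-fold lower (median -0.28), beside 1.46% of all genes lower and a median over all genes of 0.03. Of 10 transcription factors, Zeb2, known for terminal effector cells, was higher in CD8 cells (1.22, 0.85 to 1.60) and in cycling T cells (1.05), where Tbx21, which drives Ifng, stood at 1.03 (0.41 to 1.69). Of 8 genes of interferon gamma induction, 1 was at least 2-fold higher in CD8 cells, Il2ra (1.18), an interleukin-2 receptor chain, and 0 were lower, beside 6.39% of all genes higher. In CD4 cells 2 of 8 were higher, beside 9.02% of all genes, and Il15ra stood at 2.48 from 7 and 33 UMIs. Tcf7, a factor of naive and stem-like T cells, stood at -1.99 in CD4, -1.13 in gamma-delta and -1.02 in cycling T cells, and in gamma-delta cells Ccr7 stood at -1.97 and S1pr1, which guides exit from tissue, at -1.27. In NK cells Ccr7 stood at 2.996 (1.37 to 5.32, from 3 and 52 UMIs) and Tnf, a death ligand, at -1.78. Jak2 stood there at 1.75 and Irf1, both of the interferon gamma signal, at 1.05.

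Interferon gamma acts on macrophages, so 10 of its target genes were read there. Of 9 counted, 0 were at least 2-fold higher or lower, beside 1.7% of 10665 genes higher and 1.77% lower in macrophages, and their median log2 ratio was 0.24 (0.03 over all genes). The targets did not move together: Cxcl9, a chemokine for activated T cells, was at 930.8 CPM in Pgdfl/fl and 665.8 CPM in Pgdfl/fl LysMCre (-0.48, -0.54 to -0.42), whereas Cxcl10, its close relative, was at 251.9 and 351.4 CPM (0.48, 0.38 to 0.58). Nos2, the inducible nitric oxide synthase, stood at 0.96 (0.27 to 1.68) from 28 and 50 UMIs, and Socs1, which restrains the signal, at 0.58 (0.23 to 0.94). These macrophages are the cells in which Cre acts.

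Across the 12 values of a gene, 6 types in 2 libraries, the members also differed in whose pattern they shared. On log2(CPM + 10), Pearson's r was 0.89 between Gzma and Prf1, 0.84 between Gzmc and Prf1 and 0.81 between Gzmc and Nkg7, but 0.45 between Gzmb and Prf1 and -0.42 between Gzmb and Ifng. Among genes reaching 50 UMIs, the closest to Gzmb was Igflr1 (0.93), to Gzmc Gas7 (0.96), to Gzma Ctsd (0.90), to Prf1 Klra9 (0.96), to Nkg7 St3gal6 (0.97), to Ifng B4galnt1 (0.91) and to Gzmk Cd8b1 (0.96). Gzme was closest to B630019A10Rik (0.86) and Gzmf to Siah1b (0.91), while Gzmd had too few UMIs. The 12 points share 2 libraries and their depth, and these values are descriptions of likeness in level.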

How the data were processed

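Single-cell 3′ RNA was measured in 1 library per genotype. The authors deposited raw UMI counts per gene and barcode (Cell Ranger 6.1.2; mm10 and Seurat are also named in the submitters' processing notes), before their filters on cells. These filters left more cells in both libraries than the study says it analysed. The paper gives live CD45+ cells as the sort, while 1 sentence of the labels gives CD11b+ cells.

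From the counts, cells were kept if they had 500 to 7500 genes and no more than 15% mitochondrial UMIs. Cells with over 0.5% of UMIs from 8 macrophage genes, or at least 3 UMIs of B cell genes, were left out of the lymphocyte types, and no doublet caller was run. UMIs were summed per type and library and scaled to CPM. Log2 ratios are Pgdfl/fl LysMCre over Pgdfl/fl, for genes with at least 20 UMIs over both libraries, with 2-fold as the limit and 3 UMIs as the floor for a count of 0. Shares of cells were recomputed after thinning each cell to 2000 UMIs (seed 1), leaving out shallower cells: 10 of 735 and 5 of 467 CD8 cells, and at most 11 cells of a library in the other lymphocyte types. UMIs mark molecules, and intervals cover counting error only. The ratio and interval step was tested on simulated data.

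The 10 members, the gates and the lists were chosen with earlier results of these data known, and lists were written from general knowledge. All members are named in every type, and of the lists at most the 4 genes per type with the largest absolute log2 ratio whose interval left out 0, besides Ccr7 in CD8 and CD4 cells, which was added after its values were seen. Likeness used log2(CPM + 10). Alternatives changed the gates, the depth, the minimum and the cells left out. Positions and the sequences before the transcript starts came from the RefSeq tables of GRCm38.p6. The transcript ends compared for shared runs of bases were the last 400 bases of GENCODE transcripts. Python 3.11.15, numpy 2.4.6, scipy 1.17.1, pandas 2.3.3 and matplotlib 3.10.9 were used. One naive gene is not reported here; it was taken out of its list and of the naive split, and a setting that left out cells with naive genes was run without it.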

Additional observations from a re-analysis of the deposited data

Results flagged for a closer look

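Between lymphocyte types of the same 2 libraries, some members differed in opposite directions past 2-fold, and the difference between types was not tested. Gzma had a log2 ratio of Pgdfl/fl LysMCre over Pgdfl/fl of 1.28 in CD4, 6.49 in gamma-delta and 2.53 in cycling T cells, but of -3.39 in Foxp3-positive cells. The CD4, Foxp3-positive and gamma-delta values rested on 1 or 2 cells. Gzmb stood at 1.88 in gamma-delta and -1.20 in NK cells, the latter set by 1 Pgdfl/fl cell. Without a limit on macrophage and B cell genes the gamma-delta ratio of Gzmb was -0.21. Prf1 stood at 1.02 in CD4 and -1.34 in Foxp3-positive cells. Of its 36 Pgdfl/fl LysMCre UMIs in CD4 cells 27 were in 1 cell, and without the richest cell of each library that ratio was -0.64, while the Foxp3-positive ratio was -0.24 with gates on thinned counts.

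CD3 cells over the limit on macrophage genes, which entered no comparison, held 2631 UMIs of the 10 members in 166 Pgdfl/fl cells and 5541 UMIs in 254 Pgdfl/fl LysMCre cells. Their median depths were 15402 and 17599.5 UMIs. Beside them, Gzma in the CD3 cells with B cell genes, also outside the types, came to 406 and 93 UMIs, of which 381 and 92 were in 1 cell each.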

How the results depend on the processing

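No paired analysis was possible because each genotype had 1 library and no result came from a test. Ratios of Gzmc in CD8 cells (1.26 to 2.39) and Gzma in cycling T cells (1.41 to 5.39) kept their direction and stayed past 2-fold in all 13 settings that gave a value. Of 41 ratios, using all barcodes moved 0 beyond the main interval, the gates of 1 or 4 CD3 UMIs moved 1 each, a macrophage limit of 0.2% moved 2 and centring all genes at 0 moved 5. Larger numbers moved, or changed sign at any size, without the macrophage and B cell limit (13 and 7), after thinning (26 and 12), with gates on thinned counts (19 and 13) and without cells over 10% of the other oligonucleotide (25 and 7), and, of 40 ratios, without cells with a Ccr7 or Lef1 UMI (25 and 6) and without the top cell of the gene (11 and 6) and, of 34, without the 5 top cells (16 and 10). The numbers moved leave out ratios past 2-fold that changed sign, and many sign changes were of ratios near 0. Gates without Lyz2, chosen after seeing the data, moved 1. The gamma-delta gate of 2 Trdc UMIs, also chosen after seeing the data, moved 2 of 5.

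Log2 ratios past 2-fold turned sign without a limit on macrophage and B cell genes (Gzma -2.16 and Gzmb -0.21 in gamma-delta cells), after thinning (Gzma -0.036 and Prf1 -0.26 in CD4, Gzmb 0.17 in NK), with gates on thinned counts (Gzma -1.11, Gzmc -1.14 and Prf1 -0.16 in CD4, Gzma 3.44 in Foxp3-positive, Gzmc -1.15 in gamma-delta) and without cells with a Ccr7 or Lef1 UMI, chosen after seeing the data (Gzma -2.79 in CD4). They also turned without the 5 top cells (Gzma -2.67, Gzmc -1.68 and Prf1 -1.29 in CD4, Gzmb 0.64 in NK), without cells with over 10% of the other oligonucleotide (Gzma -0.44 in gamma-delta) and without the top cell, chosen after seeing the data (Gzma -0.30 and Prf1 -0.64 in CD4). Apart from the fewer cells in each, the cause was not tested.

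Counts of members past 2-fold moved as follows. Without the macrophage and B limit, 1 was lower in Foxp3-positive, 1 higher and 2 lower in gamma-delta and 0 lower in NK cells. After thinning, 1 was higher in CD8, 1 higher and 1 lower in CD4, 1 lower in Foxp3-positive and 0 lower in NK cells. With gates on thinned counts, 0 were higher in CD4, 1 lower in Foxp3-positive, 1 lower in gamma-delta and 2 higher in cycling T cells. Without cells with a Ccr7 or Lef1 UMI, 1 was higher in CD4 and 4 in cycling T cells. Without the 5 top cells, 1 was higher in CD8, 0 higher and 0 lower in CD4, 1 lower in Foxp3-positive, 1 higher in gamma-delta, 0 lower in NK and 2 higher in cycling T cells. Without cells with over 10% of the other oligonucleotide, 4 were higher in CD8 (Gzma, Gzmc, Gzmf and Gzmk), 1 in NK (Ifng, 4.40) and 2 in cycling T cells, while 3 were lower in CD4 (Ifng at -1.58 beside Gzmd and Gzme), 3 in Foxp3-positive (Gzmc at -2.88 among them) and 1 in NK cells (Gzmc, -1.15). That setting left 143 CD8, 66 CD4, 4 gamma-delta and 4 NK cells in Pgdfl/fl. In Pgdfl/fl LysMCre it left 201, 65, 6 and 34 in the same order. With no minimum of UMIs, 1 was higher in NK cells. Without the top cell, 1 was higher in CD8, 1 higher and 1 lower in CD4, 0 lower in NK and 2 higher in cycling T cells. The 20 and 35 gamma-delta and the 35 and 65 NK cells limit what depth can show there.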
